A study of Mus musculus with 7 samples.

Results

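Bulk RNA-seq of microglia sorted from WT grafts and from cortex outside the grafts of 5xFAD mice was examined for 35 genes that are usually read as markers of other brain cells. They comprised 15 genes of neurons, 5 of astrocytes, 7 of oligodendrocytes, 2 of oligodendrocyte precursors, 4 of endothelium and 2 of mural cells (pericytes and smooth muscle of vessels). The genes were chosen by name, with earlier results of these data known, and all 35 were found among the 55341 gene names of the counts. Inside the graft there were 3 libraries and outside it 4, all from 5xFAD mice on a C57BL/6 background, labelled as 14 weeks old and taken 4 weeks after injection. 5xFAD mice carry mutated human APP and PS1 under the neuron-specific Thy1 promoter. All hosts carried these transgenes, whereas the grafted cells were WT embryonic cortical cells. The study used female mice only, and the outside samples were pieces of cortex near the transplant, so they too came from injected hosts. Cells in both groups were taken by FACS as CD11b+CD45low. The labels do not say whether each library came from a separate mouse, so the P values measure the spread between these samples, which may be technical.

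Microglia are the resident macrophages of the brain, and they engulf synapses, myelin and the debris of dying cells. A pellet of sorted microglia can hold RNA that the microglia transcribed, RNA taken up with engulfed material, and RNA from other cells or free RNA that passed the gate, and these sources cannot be told apart in counts from bulk RNA. The same holds for fewer cells of a type and less RNA per cell. Neurons are recognized by genes of synaptic vesicles, cytoskeleton and transmitter synthesis, astrocytes by glutamate transporters, gap junctions and water channels, oligodendrocytes by the proteins of myelin, and vessels by junction proteins and VEGF receptors.

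The libraries held 18644807 to 25882122 counts each. The 8 microglia genes checked, among them Cx3cr1, P2ry12 and Csf1r, summed to between 38779 and 49555 CPM (counts scaled to library size with TMM factors) in the 7 libraries. Of these 8, 0 passed an adjusted P of 0.05 between the groups by either test described below. At an unadjusted P below 0.05, 3 were lower and 1 higher inside the graft by each test. Of all tested genes, 4.71% were lower and 7.47% higher by voomWithQualityWeights, and 3.79% and 5.76% by edgeR. The 3 lower genes were P2ry12, Tmem119 and Cx3cr1, with log2 fold changes (inside minus outside) of -0.50, -0.44 and -0.20 by voomWithQualityWeights. Ptprc was the higher one, at 0.28. The 35 genes of other cells together gave 442 to 500 CPM inside the graft and 553 to 590 CPM outside it. With 0 counts in a library, up to 3 counts could have been missed, which is a level of 0.116 to 0.161 CPM depending on the library, and this floor covers counting error only. Of all 55341 gene names, 25816 had 0 counts in all 7 libraries and 42162 had a mean below 1 CPM. Of the 35 genes, 3 had 0 counts in all 7 libraries and 22 had a mean below 1 CPM. The 6 genes with a mean of at least 10 CPM, namely Slc1a3, Cnp, Mbp, Pecam1, Mag and Kdr, held 96.3% of the summed CPM of the 35. The other 29 genes summed to 13.1, 23.8 and 13.5 CPM in inside graft 1 to 3 and to 41.4, 19.8, 11.5 and 15.0 CPM in outside graft 1 to 4. Outside graft 1 therefore had the most of these low transcripts, and it was also the library with the fewest counts and the lowest quality weight (0.448). Markers of further cell types were low as well, since 5 fibroblast genes, 5 genes of red blood cells and 4 genes of ependyma and choroid plexus all had means below 1 CPM. The fibroblast genes nevertheless summed to 4.86 CPM in outside graft 1 against at most 1.10 CPM in any other library, and the part of this library's makeup in the results was not tested.

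**Figure D1:**
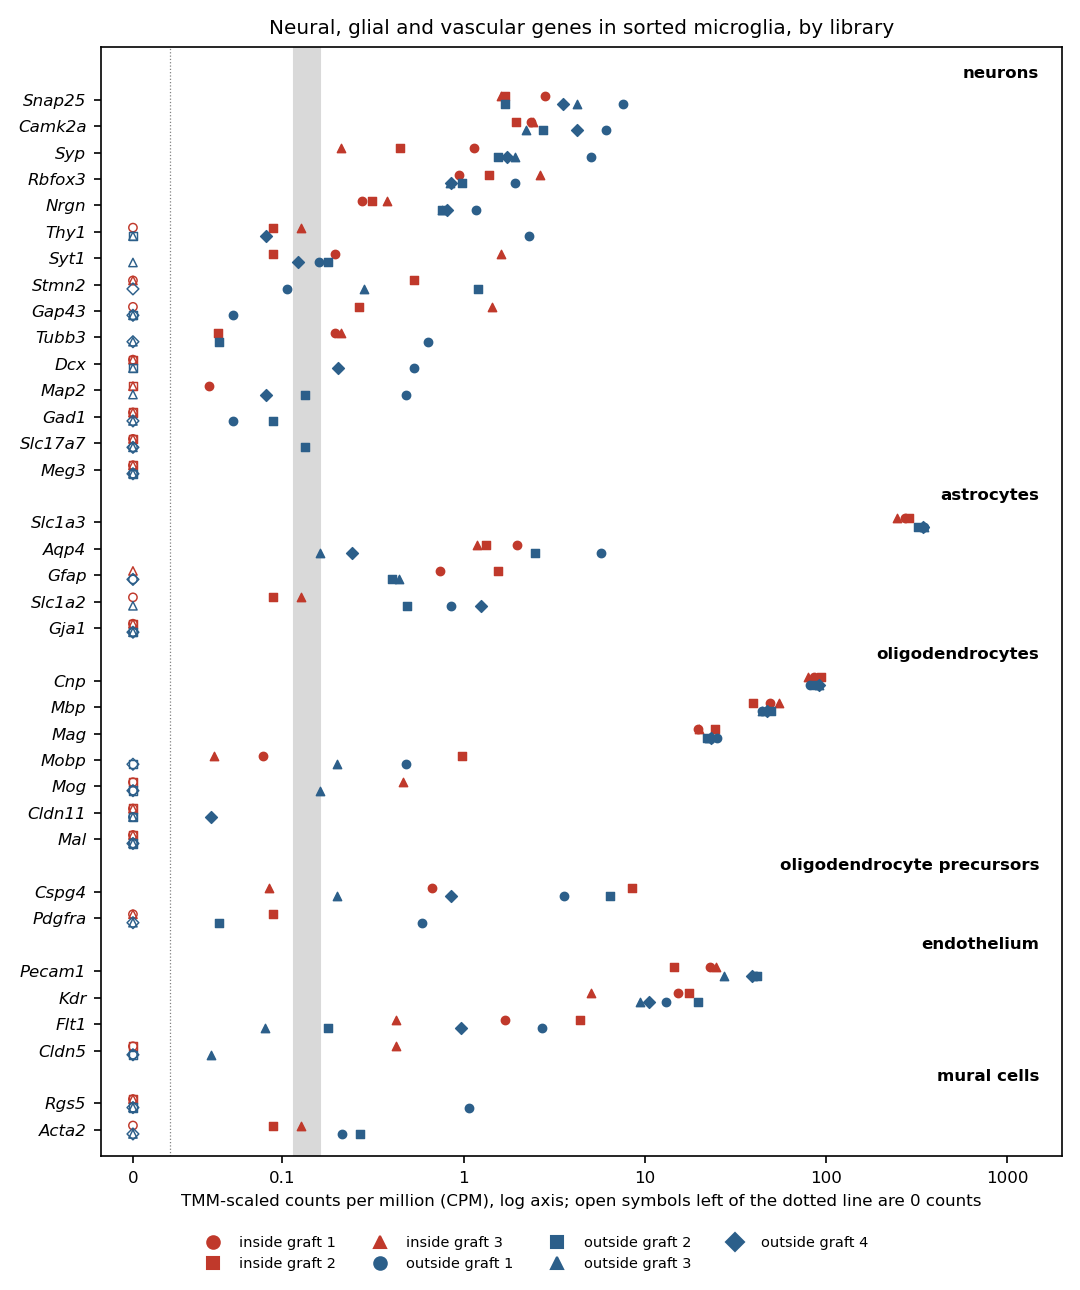
Level of each of the 35 genes in TMM-scaled CPM on a log axis, 1 symbol per library, red for the 3 libraries from inside the graft and blue for the 4 from outside it, and grouped by cell class. The grey band is the level of 3 counts (0.116 to 0.161 CPM), and open symbols at the left are libraries with 0 counts. Slc1a3 stands far to the right of the other astrocyte genes, and Cnp, Mbp and Mag far to the right of the other myelin genes.

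Within 1 cell class, abundant and undetected genes stood side by side. The clearest pairs were Slc1a3 against Gja1 among astrocyte genes and Cnp against Mal among oligodendrocyte genes, with at least 5812 counts of Slc1a3 and 1522 of Cnp in every library and 0 counts of Gja1 and Mal in all 7. To show how their control regions read, the 250 bases before the RefSeq start site of each are given here in the direction of transcription (GRCm38.p6), with the GC box GGGCGG or its reverse complement CCGCCC in capitals. Slc1a3 (chr15:8710808-8711057, minus strand), Gja1 (chr10:56377050-56377299, plus strand), Cnp (chr11:100574689-100574938, plus strand) and Mal (chr2:127656696-127656945, minus strand) read as follows.
Slc1a3: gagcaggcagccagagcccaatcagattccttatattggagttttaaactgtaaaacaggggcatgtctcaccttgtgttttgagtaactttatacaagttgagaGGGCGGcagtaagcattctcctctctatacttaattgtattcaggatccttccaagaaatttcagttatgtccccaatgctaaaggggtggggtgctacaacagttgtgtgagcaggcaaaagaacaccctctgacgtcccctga
Gja1: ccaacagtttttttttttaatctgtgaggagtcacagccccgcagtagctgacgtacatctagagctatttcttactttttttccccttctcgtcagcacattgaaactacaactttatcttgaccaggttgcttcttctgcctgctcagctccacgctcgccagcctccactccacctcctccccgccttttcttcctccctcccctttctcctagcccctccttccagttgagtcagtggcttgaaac
Cnp: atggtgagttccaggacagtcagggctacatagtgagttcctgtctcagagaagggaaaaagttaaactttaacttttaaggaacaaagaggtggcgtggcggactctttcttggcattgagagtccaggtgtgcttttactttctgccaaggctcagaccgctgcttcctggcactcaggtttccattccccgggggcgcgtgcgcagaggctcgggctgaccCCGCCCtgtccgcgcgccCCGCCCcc
Mal: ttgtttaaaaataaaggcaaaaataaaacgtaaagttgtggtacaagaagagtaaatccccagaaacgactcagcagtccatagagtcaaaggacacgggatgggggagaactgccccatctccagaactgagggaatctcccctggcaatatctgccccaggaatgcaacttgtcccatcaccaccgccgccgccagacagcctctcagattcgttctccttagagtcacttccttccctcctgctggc

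The window before the RefSeq start of Slc1a3 held 1 GC box and that of Cnp held 2, while those of Gja1 and Mal held 0. In the GENCODE annotation used for the counts, Cnp starts 35 bases earlier than in RefSeq. Both GC boxes of Cnp lie after that GENCODE start, so they are upstream by the RefSeq start only. This motif was found in 32.7% of the 32851 RefSeq promoter windows of the same length, and the pairs and the motif were chosen after the levels had been seen. RefSeq windows were at hand for 27 of the 35 genes, with 32 windows in all, and 13 of these genes held the motif in at least 1 window. The counts of genes are thus per gene and the 32.7% is per window, so they are not directly comparable. Among the 11 matched genes that had enough counts to be tested, 7 held it, and among the 16 matched genes below that filter, 6 did. No share per gene over all genes was computed, and a link between the motif and the level was not tested. The match describes letters only.

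Inside and outside the graft were compared for the 16 of 35 genes that passed the filter on low counts (edgeR's filterByExpr), in 1 fit over 15257 genes with limma's voomWithQualityWeights and the study's threshold of an adjusted P below 0.01. With this test 0 of the 16 genes passed 0.01 and 0 passed 0.05, where 0.0197% and 0.492% of all tested genes did. By edgeR's quasi-likelihood test 0 of the 16 passed either threshold, against 0% of all tested genes at 0.01 and 0.0983% at 0.05. At an unadjusted P below 0.05 there were 3 of the 16 genes by each test, Slc1a3, Pecam1 and Syp, all lower inside the graft. Of all tested genes, 4.71% were lower and 7.47% higher inside the graft at this level by voomWithQualityWeights, and 3.79% were lower and 5.76% higher by edgeR. In 4 of the 16 genes, Slc1a3, Pecam1, Syp and Nrgn, every library from inside the graft lay below every library from outside it, as did 5.02% of all tested genes, and in 0 of the 16 did every inside library lie above, as it did in 5.65% of all tested genes. The log2 fold changes, inside minus outside the graft, were negative for 9 genes and positive for 7, with a median of -0.083 beside -0.013 for all tested genes. The interval of the difference lay within 1 on the log2 scale to either side of 0 for 5 genes only, Slc1a3, Mbp, Cnp, Mag and Kdr, and was wider for the rest.

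**Figure D2:**
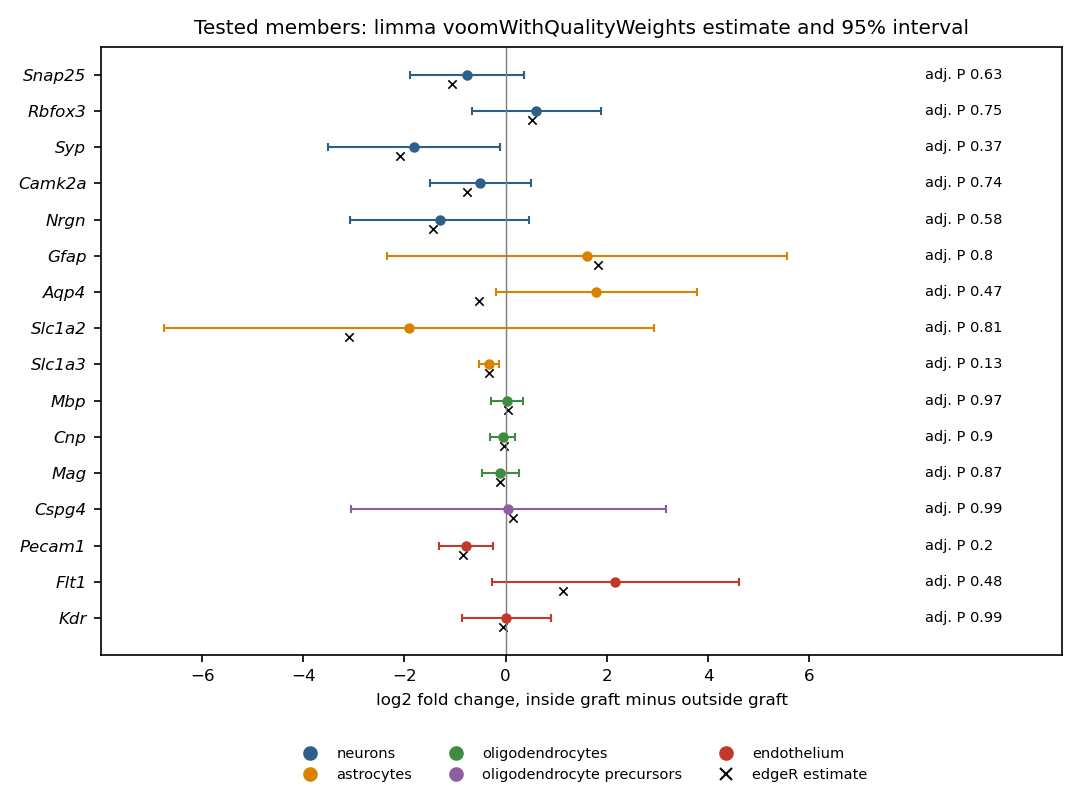
Log2 fold change, inside minus outside the graft, of the 16 tested genes with its 95% interval from voomWithQualityWeights (circles and bars, coloured by cell class), the adjusted P of that test at the right, and the edgeR estimate as a cross. The intervals of Slc1a3, Pecam1 and Syp lie below 0 before adjustment, and that of Slc1a2 is the widest.

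The genes of synapses gave the highest neuronal levels, and they were low. Snap25, a SNARE protein needed for the release of synaptic vesicles, had 2.83, 1.69 and 1.6 CPM in inside graft 1 to 3 and 7.58, 1.69, 4.22 and 3.52 CPM in outside graft 1 to 4. These values overlapped between the groups, with the highest in outside graft 1, and rested on 38 to 142 counts per library. The log2 fold change was -0.76 (SE 0.51, adjusted P = 0.626 by voomWithQualityWeights). Syp, which encodes the vesicle membrane protein synaptophysin, had 1.14, 0.444 and 0.211 CPM inside and 5.07, 1.56, 1.93 and 1.74 CPM outside the graft. The groups did not overlap, the log2 fold change was -1.81 with a 95% interval of -3.51 to -0.12, and the P was 0.0384 before and 0.371 after adjustment (edgeR: -2.09, adjusted P = 0.392). With 1 library left out it ran from -2.57 (without inside graft 1) to -1.37 (without inside graft 3). The Syp counts were 5 to 29 inside and 35 to 95 outside the graft, and 16.8% of its exon bases are shared with the antisense gene Gm14703. Strand was not used, so reads over these bases cannot be assigned to either gene.

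Nrgn, a calmodulin-binding protein of dendritic spines, also showed separate groups, with 0.275, 0.311 and 0.379 CPM inside and 1.17, 0.756, 0.764 and 0.810 CPM outside the graft. Its counts were only 7 to 22 per library, and the log2 fold change of -1.31 had a 95% interval of -3.07 to 0.45 (adjusted P = 0.58 by voomWithQualityWeights). Camk2a, the kinase of excitatory synapses, had 2.36, 1.95 and 2.40 CPM inside and 6.08, 2.76, 2.21 and 4.21 CPM outside the graft, and the groups overlapped (log2 fold change -0.50, adjusted P = 0.742 by voomWithQualityWeights). Rbfox3, which encodes the nuclear protein NeuN, went the other way, with 0.942, 1.38 and 2.65 CPM inside and 1.92, 0.979, 0.845 and 0.851 CPM outside the graft. Its groups overlapped too, and its log2 fold change was 0.61 (SE 0.58, adjusted P = 0.753 by voomWithQualityWeights). Leaving out inside graft 3 gave 0.27 and leaving out inside graft 1 gave 1.04.

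The other 10 neuronal genes did not pass the filter on low counts, and 1 of them had 0 counts throughout, 4 had counts in 1 to 3 libraries and 5 in 4 to 6 libraries. Syt1, the calcium sensor of vesicle release, had 38 counts in inside graft 3 and at most 5 counts elsewhere. Gap43, a protein of growing axons, had 34 counts in inside graft 3, 6 in inside graft 2 and 1 in outside graft 1, and Stmn2, another gene of axon growth, had 27 counts in outside graft 2, 12 in inside graft 2 and at most 7 elsewhere. The counts of Gap43 and Stmn2 were thus highest in different libraries. Dcx, a microtubule protein of young migrating neurons, had 0 counts in all 3 libraries from inside the graft and 10 and 5 counts in outside graft 1 and 4. Tubb3, the neuronal tubulin, and Map2, of the dendritic cytoskeleton, reached 12 and 9 counts, both in outside graft 1. Thy1, a surface protein of neurons and T cells, had 43 counts in outside graft 1 and at most 3 in any other library. The genes that set transmitter identity were near 0, with at most 3 counts of Slc17a7 (the vesicular glutamate transporter of cortical neurons) and at most 2 of Gad1 (the enzyme of GABA synthesis). Meg3, a long noncoding RNA that is abundant in neurons, had 0 counts in all 7 libraries.

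Summed over the 15 neuronal genes, the level was 8.46 ± 1.96 CPM inside (SD, n = 3) and 14.4 ± 7.89 CPM outside the graft (SD, n = 4). The sum was 26.1 CPM in outside graft 1 and 9.52 to 11.6 CPM in the other 3 outside libraries, beside 6.79 to 10.6 CPM inside. The log2 ratio of the means was -0.77 with all libraries and -0.31 without outside graft 1.

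**Figure D3:**
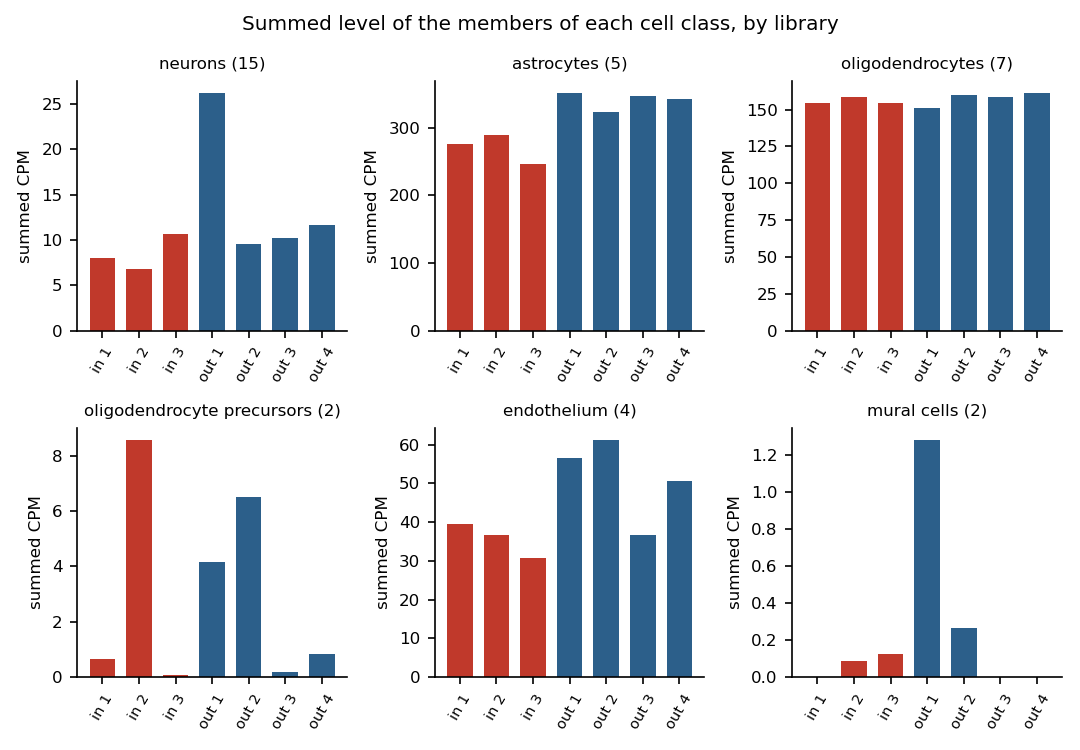
Summed TMM-scaled CPM of the genes of each cell class in each library (red, inside the graft; blue, outside it), with the number of genes in brackets and a separate scale from 0 for each class. Outside graft 1 has the highest bar for neurons and mural cells, the astrocyte bars are lower in all 3 inside libraries, and the oligodendrocyte bars lie between 151 and 161 CPM.

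Among the astrocyte genes, 1 gene made up 99.1% of the summed level. Slc1a3 (chr15:8634124-8710764, 13 merged exons), which encodes the glutamate transporter GLAST, had 273, 287 and 245 CPM inside and 345, 320, 347 and 341 CPM outside the graft. Every inside library lay below every outside library, with means of 268 ± 21.4 and 338 ± 12.1 CPM (SD, n = 3 and 4). The log2 fold change was -0.33 (SE 0.090, 95% interval -0.53 to -0.14), with a P of 0.00328 before and 0.132 after adjustment by voomWithQualityWeights and an adjusted P of 0.270 by edgeR. With 5812 to 8620 counts per library, 97.2% of all tested genes had a lower mean than Slc1a3.

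The other astrocyte genes did not share this level. Aqp4, the water channel of astrocyte endfeet, had 1.96, 1.33 and 1.18 CPM inside and 5.71, 2.49, 0.161 and 0.243 CPM outside the graft. The outside libraries thus spread on both sides of the inside ones, and the direction depended on the test, with log2 fold changes of 1.79 by voomWithQualityWeights (adjusted P = 0.474) and -0.52 by edgeR (adjusted P = 0.935). Gfap, the intermediate filament of reactive astrocytes, had 0.746, 1.55 and 0 CPM inside and 0, 0.400, 0.443 and 0 CPM outside the graft. Slc1a2, the main glutamate transporter of mature astrocytes, reached 3 counts inside the graft and 16, 11, 0 and 31 counts outside it, with overlapping groups. Gja1, which encodes an astrocytic connexin, had 0 counts throughout. The ratio of Aqp4 to Slc1a3 counts ranged from 0.00046 to 0.0166 between libraries. The class sum was 271 ± 22.3 CPM inside and 341 ± 12.2 CPM outside the graft (SD, n = 3 and 4), a log2 ratio of -0.33.

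**Figure D4:**
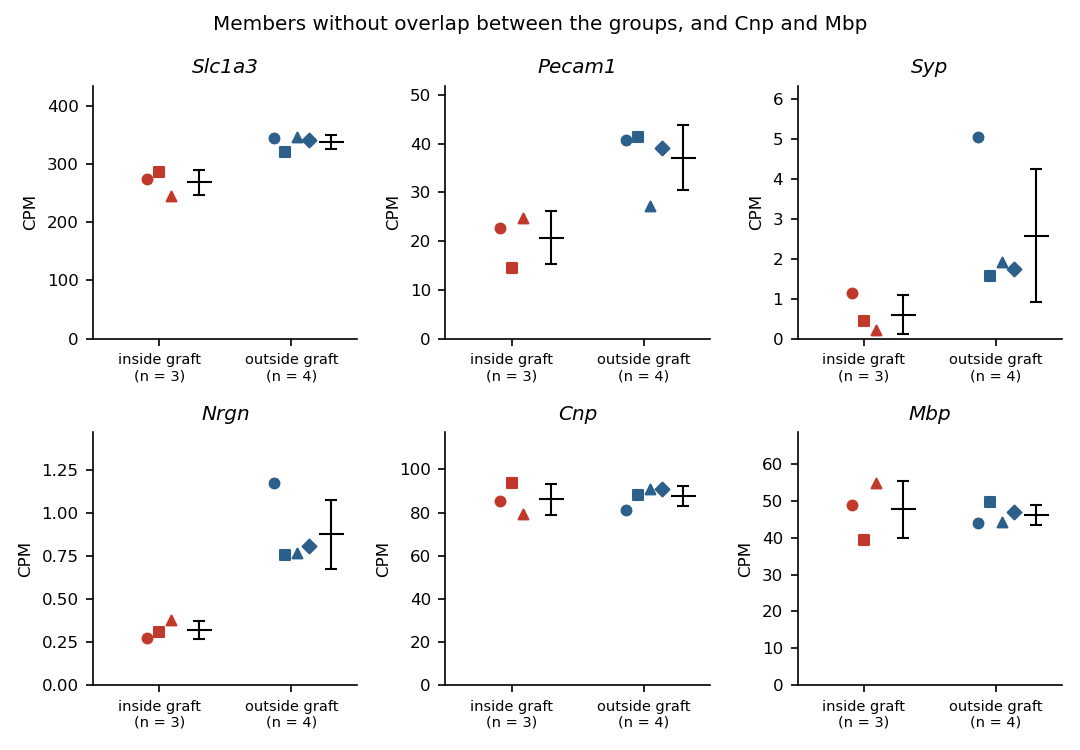
CPM by library for the 4 genes whose groups did not overlap (Slc1a3, Pecam1, Syp, Nrgn) and for Cnp and Mbp, with the mean and SD in black (n = 3 inside and 4 outside the graft) and axes from 0. Outside graft 1 is the highest outside library for Syp (5.07 CPM) and Nrgn (1.17 CPM), and outside graft 3 the lowest for Pecam1 (27.3 CPM).

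Of the oligodendrocyte genes, 3 were abundant and even across libraries and 4 were at or near 0. Cnp (chr11:100574904-100591729), an enzyme of the cytoplasmic channels of myelin, had 85.5, 93.7 and 79.2 CPM inside and 81.2, 88.4, 91.0 and 90.8 CPM outside the graft. Its highest value was 1.18 times its lowest, where the median of this ratio was 1.63 over the 8917 tested genes with a mean of at least 10 CPM. Of its exon bases, 4.23% are shared with the antisense gene Dnajc7. Mbp, the protein that compacts the myelin sheath and whose locus also gives transcripts in immune cells, had 49.0, 39.5 and 54.9 CPM inside and 44.1, 49.8, 44.3 and 47.1 CPM outside the graft. Mag (chr7:30899176-30914873), an adhesion protein between myelin and axon, had 19.6, 24.5 and 19.9 CPM inside and 24.9, 21.9, 22.5 and 23.0 CPM outside it. The groups of all 3 overlapped. Their log2 fold changes were -0.06 for Cnp (95% interval -0.30 to 0.19), 0.03 for Mbp (-0.29 to 0.35) and -0.11 for Mag (-0.48 to 0.26), with adjusted P values of 0.90, 0.967 and 0.868 by voomWithQualityWeights.

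Within libraries, the ratio of Mag to Cnp counts lay between 0.230 and 0.306 and that of Mbp to Cnp between 0.421 and 0.693. By contrast, Mobp, a protein of compact myelin, reached 22 counts in inside graft 2 and at most 9 elsewhere, and Mog, at the outer surface of myelin, had 11 counts in inside graft 3, 4 in outside graft 3 and 0 in the other libraries. Cldn11, of the tight junctions of myelin, had 1 count in outside graft 4. Mal, a proteolipid of compact myelin, had 0 counts in all 7 libraries. The class summed to 156 ± 2.48 CPM in inside libraries and to 157 ± 4.67 CPM in outside ones (SD, n = 3 and 4), which differed by -0.016 on the log2 scale, less than the spread between libraries.

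The precursor genes varied widely between libraries of both groups, and summed to 3.11 ± 4.74 CPM inside and 2.93 ± 2.94 CPM outside the graft (SD, n = 3 and 4). Cspg4, a proteoglycan of oligodendrocyte precursors and pericytes, had 0.667, 8.48 and 0.084 CPM inside and 3.58, 6.45, 0.201 and 0.851 CPM outside the graft, a range from 2 to 191 counts. High and low libraries were present in both groups, and the log2 fold change was 0.05 with an SE of 1.42 (adjusted P = 0.995 by voomWithQualityWeights). Pdgfra, the growth factor receptor of the same cells, had 11 counts in outside graft 1, 2 in inside graft 2 and 1 in outside graft 2. Outside graft 1 was therefore the library with the most Pdgfra, but not the one with the most Cspg4.

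Of the endothelial genes, Pecam1 was the one whose groups did not overlap. Pecam1 (chr11:106654217-106750628, 17 merged exons), an adhesion protein of endothelium that leukocytes and platelets also carry, had 22.8, 14.6 and 24.8 CPM inside and 40.8, 41.5, 27.3 and 39.0 CPM outside the graft. The groups did not overlap, with means of 20.7 ± 5.43 and 37.1 ± 6.65 CPM (SD, n = 3 and 4) and 328 to 964 counts per library. The log2 fold change was -0.78 (SE 0.24, 95% interval -1.31 to -0.24), with a P of 0.00832 before and 0.203 after adjustment by voomWithQualityWeights and an adjusted P of 0.206 by edgeR. By DESeq2's Wald test, run as an alternative, Pecam1 and Slc1a3 had adjusted P values of 0.036 and 0.043 and so passed 0.05, as did 2.75% of all tested genes by that test, but not 0.01.

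The VEGF receptors did not follow Pecam1. Kdr had 15.2, 17.6 and 5.06 CPM inside and 13.0, 19.6, 9.37 and 10.5 CPM outside the graft, with overlapping groups and a log2 fold change of 0.02 (SE 0.40, adjusted P = 0.994 by voomWithQualityWeights). Flt1 had 1.69, 4.39 and 0.421 CPM inside and 2.72, 0.178, 0.081 and 0.972 CPM outside the graft, again with overlap (log2 fold change 2.17, SE 1.11, adjusted P = 0.484 by voomWithQualityWeights). The Flt1 value was 1.14 by edgeR, and by voomWithQualityWeights 1.33 without inside graft 2, 1.38 without outside graft 3 and at most 2.95 with another library left out. The ratio of Kdr to Pecam1 counts ranged from 0.204 in inside graft 3 to 1.21 in inside graft 2. Cldn5, the tight junction protein of the blood-brain barrier, had 10 counts in inside graft 3, 1 in outside graft 3 and 0 in the other 5 libraries, so that the gene most particular to brain endothelium in this list was the least detected of the 4. Summed over the 4 genes, the level was 35.6 ± 4.52 CPM inside and 51.3 ± 10.6 CPM outside the graft (SD, n = 3 and 4), a log2 ratio of -0.52, and of 0.08 without Pecam1.

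Mural genes were at the floor in most libraries. Rgs5, a regulator of G protein signalling in pericytes, had 20 counts in outside graft 1 and 0 in the other 6 libraries, and Acta2, the actin of smooth muscle, had at most 6 counts. No fold is given for this class, since the mean inside the graft of 0.072 CPM was under the level of 3 counts.

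Levels were also taken per length of the exons (TPM, counts divided by the gene length in the file and scaled to the same total in every library, without TMM factors). On this scale the 6 abundant genes, by their means over all libraries, kept their order in CPM apart from Mag and Pecam1, which changed places. Slc1a3 had a mean of 111 TPM over the 7 libraries, Cnp 73.4, Mbp 17.0, Mag 16.8, Pecam1 14.9 and Kdr 4.34 TPM. The order of Mbp, Mag and Pecam1 differed between the groups, with means of 16.7, 15.3 and 9.88 TPM inside the graft and of 17.3, 17.9 and 18.7 TPM outside it. The synaptic genes were lower than all of these on this scale, with 1.51 TPM for Snap25, 1.36 for Nrgn, 1.29 for Camk2a and 1.03 for Syp.

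The number of genes detected differed between libraries within each group. Between 19 and 24 of the 35 genes had at least 1 count in the libraries from inside the graft, and 27, 24, 19 and 20 had one in outside graft 1 to 4. Outside graft 1 had the highest CPM for 12 of the 35 genes, 8 of them neuronal, and inside graft 1 had the highest for 0. The total of outside graft 1 was the smallest, so 1 count gave 0.053 CPM there and 0.039 CPM in inside graft 1. Of 100 further genes of the same cell classes, 33 were highest in outside graft 1 and 8 in inside graft 1. The same share over all genes was not computed. Over all gene names in the counts, 38.7% had a count in outside graft 1 and 35.3% to 36.9% in the other libraries. Without outside graft 1, voomWithQualityWeights again called 0 of the tested members, now 15, and 4 had an unadjusted P below 0.05 (Slc1a3, Pecam1 and Syp lower and Aqp4 higher inside the graft), where 12.3% of all genes tested without this library did in either direction.

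**Figure D5:**
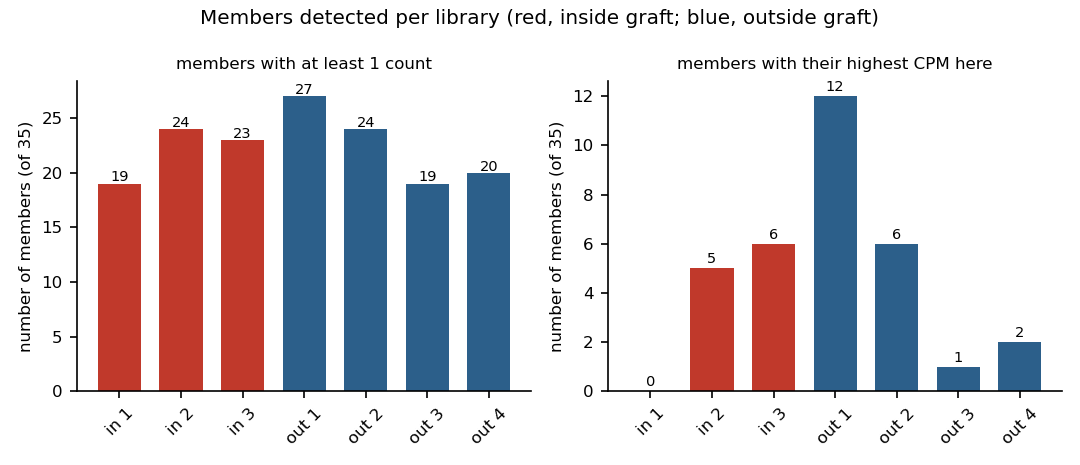
Number of the 35 genes with at least 1 count in each library (left) and number whose highest CPM was in that library (right), red for inside and blue for outside the graft. Outside graft 1 has 27 genes with counts and the highest level of 12 genes, and inside graft 1 has the highest level of 0.

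Of a wider list of 100 further genes of the same 6 cell classes, 27 were tested, 83 had a mean below 1 CPM and 12 had 0 counts in all libraries. Of all 55341 gene names, 42162 had a mean below 1 CPM and 25816 had 0 counts in all libraries, so low means were not particular to this list. The median log2 fold change of the 27 tested genes of the wider list was 0.07, with 13 negative and 14 positive. Among the further neuronal genes, 27 of 36 had means below 1 CPM, and Vamp2, a SNARE protein of synaptic vesicles, was the highest by its mean over all libraries (83.3 CPM inside and 95.4 CPM outside the graft), and it did not pass 0.05 by either test.

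The wider glial and vascular lists were likewise led by a few genes. Glul, glutamine synthetase, had a mean of 236 CPM inside the graft and 270.0 CPM outside, and Trf, transferrin, 372 and 342 CPM, while 13 of 15 further astrocyte genes and 12 of 15 further oligodendrocyte genes had means below 1 CPM. Of the 16 further endothelial genes, Slc2a1 (a glucose transporter; means of 114 and 93.7 CPM) and Eng (endoglin; 83.9 and 107 CPM) were high, 13 had means below 1 CPM and 5 had 0 counts in all libraries. All 7 further precursor genes and all 11 further mural genes had means below 1 CPM.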

How the data were processed

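Microglia from inside (3 libraries) and outside (4 libraries) the graft were measured by bulk RNA-seq, with groups and replicate numbers as labelled. The authors amplified cDNA with a SMART-Seq low input kit, aligned single reads with STAR 2.7.2a and deposited the raw featureCounts 1.6.2 counts of each gene name with the GENCODE M21 annotation (GRCm38.p6). Strand was ignored and reads that align to several places were left out. The deposited gene length is the sum of the merged exon bases. Counts without molecular identifiers overstate the molecules sampled.

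TMM-scaled CPM and the comparison of the groups came from R 4.3.3, limma 3.58.1 (voomWithQualityWeights, lmFit, eBayes), edgeR 4.0.16 (glmQLFit, glmQLFTest) and, as an alternative, DESeq2 1.42.0, after filterByExpr by group (15257 genes), with Benjamini-Hochberg adjustment over all tested genes and thresholds of 0.01 and 0.05. The filter and the TMM scaling are not named in the sources used here and could change the calls. Class sums have no test. All 35 genes are named. Of the wider lists, the 3 highest of a list or those past 0.05 could be named, and results for some of these genes are not reported here. Members, lists and tests were chosen with earlier results of these data known. Promoter sequences are from RefSeq (GRCm38.p6). The fits were tested on simulated data. Alternatives were other scalings, filters, weights, tests, a replicate block and each library left out. Same-numbered libraries had correlations of -0.043, 0.090 and 0.067, beside -0.117 to 0.064 for libraries with different numbers. For inside graft 2 and 3 the same-numbered outside library had the highest correlation, and for inside graft 1 it had the lowest. Such small values do not settle whether the libraries are paired, and the labels do not say. The numbers were therefore not taken as pairs in the main fits.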

Additional observations from a re-analysis of the deposited data

Results flagged for a closer look

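In the 4 outside libraries, 38 values (genes with any count outside the graft and the 6 class sums) were checked for a library far from the other 3 by the gap divided by the range, and 14 stood apart. Chance sets about 1 in 20 such values apart in continuous measurements. That rate does not apply to 6 of the 14 (Gap43, Slc17a7, Mog, Cldn11, Cldn5 and Rgs5), which had counts in 1 outside library only, so that the gap equals the range. Nor does it apply to other sparse counts. In outside graft 1 to 4, Tubb3 had 12, 1, 0 and 0 counts, Pdgfra 11, 1, 0 and 0, and Thy1 43, 0, 0 and 2. The neuronal sum repeats its own genes. The check therefore cannot say how unusual the 14 values are. Of the 14, 9 were in outside graft 1. In that library these were Syp at 5.07 CPM, Thy1 at 2.29, Rbfox3 at 1.92, Nrgn at 1.17, Rgs5 at 1.07, Tubb3 at 0.640, Pdgfra at 0.587 and Gap43 at 0.053 CPM, together with the summed neuronal genes at 26.1 CPM. The Gap43 value is 1 count.

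In outside graft 3, Pecam1 stood low at 27.3 CPM beside 39.0 to 41.5 CPM in the other 3 outside libraries, Mog stood high at 0.161 CPM and Cldn5 at 0.040 CPM, each beside 0 counts in the others. Slc17a7 at 0.133 CPM in outside graft 2 and Cldn11 at 0.0405 CPM in outside graft 4 rested on 3 counts and 1 count.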

How the results depend on the processing

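With every alternative tried at an adjusted P below 0.01, 0 members were called by voomWithQualityWeights, edgeR or DESeq2. The background moved. By voomWithQualityWeights, 3 of all genes were called, but 75 at 0.05, 1 with library size alone, 41 without the filter, 48 with at least 10 counts in every library, 1 without weights and 0 to 33 with 1 library left out. By edgeR, 0 were called, but 15 at 0.05, 190 without the filter, 20 with at least 10 counts in every library, 232 by DESeq2 and 0 to 1 with 1 library left out. With a replicate block, which drops outside graft 4, 77 genes by voomWithQualityWeights and 5 by edgeR were called, and 0 members, of 15 tested. Slc1a3 and Pecam1 had an unadjusted P below 0.05 in 14 of 14 fits by voomWithQualityWeights and 14 of 14 by edgeR or DESeq2, and Syp in 9 and 10 of 14. Apart from DESeq2, the other filters and the edgeR refits, the adjusted P ran from 0.078 to 0.461 for Slc1a3, from 0.175 to 0.429 for Pecam1 and from 0.307 to 0.629 for Syp.

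Of 187 alternative fold changes of members, 169 kept their direction and side of the threshold and 18, in 4 members, changed sign. Aqp4 was -0.66 with the replicate block and -0.52 by edgeR. Mbp was -0.0064 with library size alone, -0.0047 with the block, and -0.071 to 0.16 with 1 library left out. Cspg4 was -0.69 without weights and -1.66 to 1.39 with 1 library left out. Kdr was -0.013 with library size alone, -0.24 with the block, -0.17 without weights, -0.057 by edgeR, and -0.37 to 0.49 with 1 library left out. Among class sums, the log2 ratio in TPM was -0.44 for astrocytes and -0.13 for oligodendrocytes. TPM carry no TMM factors, so this setting changed the scaling between libraries as well as dividing by gene length. In CPM, the ratio of endothelium was 0.079 without Pecam1, and that of precursors ran from -2.96 (without inside graft 2) to 0.84 with 1 library left out. The cause was not tested.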
